A study of Rattus norvegicus with 24 samples.

Results

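CD40 and the TNF receptor-associated factors (TRAFs) were examined in the peripheral blood of rats fed oat beta-glucans and injected with lipopolysaccharide (LPS). The set held 8 genes, namely Cd40, Cd40lg and Traf1 to Traf6, among the 25885 gene and transcript names on the array, and its probes were found by an exact match of the gene name. There were 9 such probes, since Cd40 and Traf3 each had 2 and Traf5 had none under that name. The set was chosen by measured values: it was built around Cd40 and Traf3, which stood in the study's list of transcripts that differed between LPS-G1 and LPS-G0. That comparison is therefore described here without a test for any member, and Cd40 and Traf3 are tested only where neither of those groups enters.

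CD40 is a receptor of the TNF receptor family, best known on B cells, monocytes and dendritic cells, and its ligand CD40L (Cd40lg) is shown by activated T cells. Neither CD40 nor its relatives have an enzyme of their own, and they signal by gathering TRAF proteins at the inner face of the membrane. TRAF2 recruits the ubiquitin ligases cIAP1 and cIAP2, TRAF3 keeps the kinase NIK (Map3k14) low by steering it to degradation and so holds back the non-canonical NF-kB pathway, and TRAF6 also serves the Toll-like receptors, the LPS receptor TLR4 included.

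All animals were male Sprague Dawley rats, 8 weeks old at the start, kept for 6 weeks on 1 of 3 semi-synthetic diets. The G0 diet had no beta-glucan, the G1 diet held oat beta-glucan of high molecular weight and the G2 diet that of low molecular weight. Rats of C-G0, C-G1 and C-G2 received saline through the tail vein, and rats of LPS-G0, LPS-G1 and LPS-G2 received LPS at 10 mg per kg by the same route. By the study's methods, saline and LPS were each injected more than once, days apart. Blood was drawn when the 6 weeks of feeding ended. Each of the 6 groups had 4 rats with 1 two-colour array each, and the 24 arrays lay on 3 slides that each held all 6 groups. Whole blood was used, so a lower signal from fewer cells of a type and from less RNA per cell cannot be told apart.

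Every value below is the log2 ratio of the rat's own RNA (Cy3) over a common reference pool (Cy5), so 0 means equal signal from both. No dyes were swapped, so a probe's level above or below 0 cannot be told apart from a dye effect on that probe. The labels describe the pool as RNA of every rat in the study, whereas the methods describe it as RNA of rats of each group that were kept off the arrays. The labels place the rat RNA in Cy3 and the pool in Cy5, whereas the study's methods name the dyes the other way round. The labels were followed: over 7074 probes bright in both channels, the median SD within groups was 0.341 log2 units in Cy3 and 0.181 in Cy5, and it was larger in Cy3 for 97.3% of them. Were the dyes reversed, the sign of every log2 ratio and difference below would turn, while correlations would keep theirs. Detection in Cy3, and so the filter, would then describe the pool. LPS-G0 replicates 3 and 4 carry an LPS title beside another label field that reads control, so differences of the members, named genes and gene lists that rest on LPS-G0 are also given without those LPS-G0 arrays, which leaves the 2 LPS-G0 rats of slide 1. Between 7786 and 15385 of 30367 probes were well above background in Cy3 per array. Precision was limited by the number of arrays, 4 per group.

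The probes are 60 bases long, and 6 of them are shown because they mark which stretch of each transcript the values stand for. In the lines below, capitals mark GATGATAC, the longest run of bases shared by probes of different TRAF genes (8 bases, Traf3 and Traf6).
Cd40 probe A_64_P139173: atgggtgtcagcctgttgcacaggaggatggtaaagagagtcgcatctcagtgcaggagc
Cd40lg probe A_64_P128867: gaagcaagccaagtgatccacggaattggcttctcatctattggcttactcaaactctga
Traf2 probe A_44_P241277: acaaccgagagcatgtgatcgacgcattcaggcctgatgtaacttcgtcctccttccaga
Traf3 probe A_44_P335636: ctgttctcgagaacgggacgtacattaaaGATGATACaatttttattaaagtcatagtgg
Traf4 probe A_42_P567527: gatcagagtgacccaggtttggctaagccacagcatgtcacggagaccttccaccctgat
Traf6 probe A_44_P433773: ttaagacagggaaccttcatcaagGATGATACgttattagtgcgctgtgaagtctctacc
With so short a shared run, no member's probe holds a long stretch of another member's. The 2 Traf3 probes start 4628 bases apart on the transcript, and the 2 Cd40 probes start 251 bases apart. In rn4, the build of the array files, the Cd40 probes lie on chr3:156107231-156107290 (A_42_P666951) and chr3:156106980-156107039 (A_64_P139173), and the Traf3 probes on chr6:136026758-136026817 (A_44_P111337) and chr6:136022013-136022072 (A_44_P335636).

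Detection in Cy3 set which members could be measured. Cd40 probe A_42_P666951 and Traf3 probe A_44_P111337 were well above background on 24 of 24 arrays, Traf2 on 22, and Traf1 and Traf6 on 17 each. Traf4, a TRAF with little part in CD40 signalling, was above background on 7 arrays, the second Cd40 probe (A_64_P139173) on 3, the second Traf3 probe (A_44_P335636) on 1 and Cd40lg on 0 of 24. No member probe was saturated on any array. Testing required a probe to be above background throughout the 4 arrays of some group, which 5 of the 9 probes (5 genes) met. Traf1 met it through LPS-G1 alone and Traf6 through C-G1 and LPS-G1 alone, so the counts over these 5 probes are given as description only. In 3 of the 32 tests below the probe had passed only through the groups compared (Traf1 in LPS-G1 against C-G1 and against LPS-G2, Traf6 in LPS-G1 against C-G1). Neither p nor interval is printed for them.

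**Figure D1:**
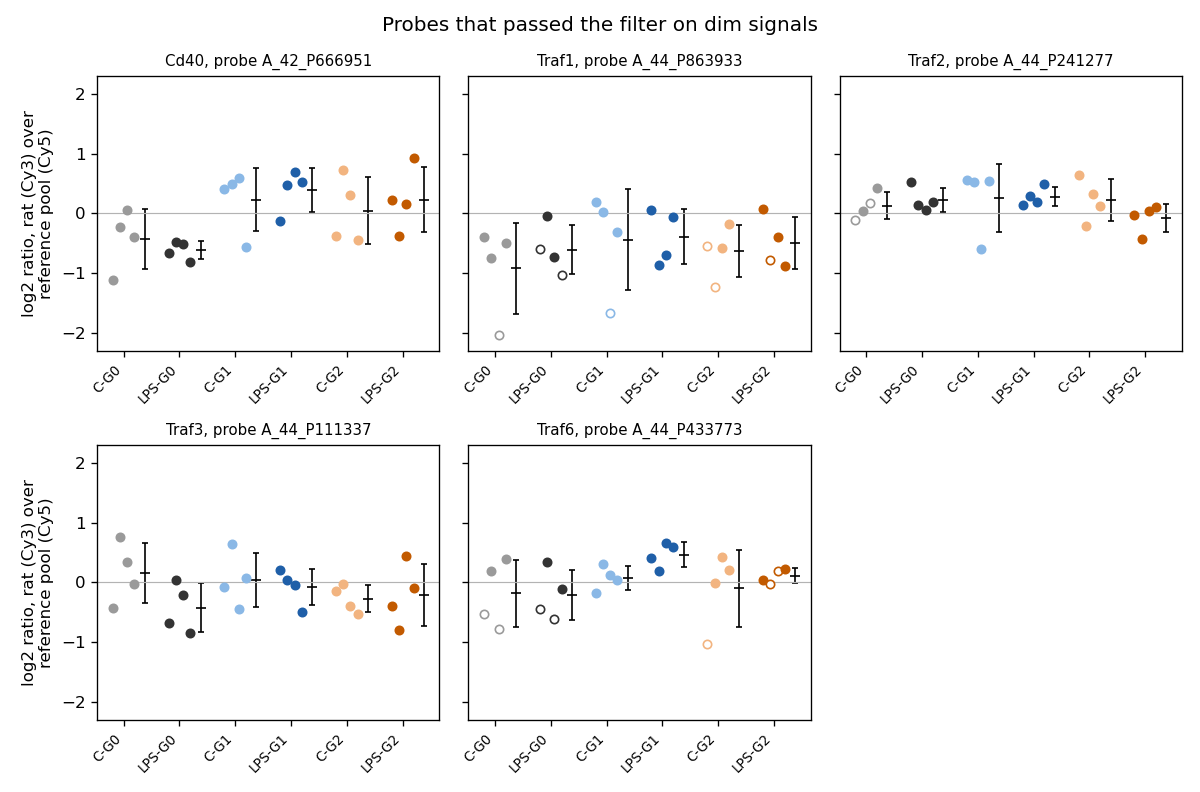
Log2 ratio of rat RNA over the reference pool (y axis) on each of the 24 arrays for the 5 member probes that passed the filter, by group (x axis). Each point is 1 rat, filled where the Cy3 signal was well above background and open where it was not, and the bars give the mean and SD of the 4 arrays. The 4 LPS-G0 arrays of Cd40 lie between -0.81 and -0.48, below all 4 arrays of LPS-G1 and of LPS-G2.

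By group mean, Cd40 was lowest in rats on the G0 diet, with and without LPS. With probe A_42_P666951, the LPS-G0 arrays read -0.66, -0.48, -0.51 and -0.81. The LPS-G1 arrays read -0.13, 0.48, 0.69 and 0.52, and the LPS-G2 arrays 0.23, -0.39, 0.16 and 0.92. Neither beta-glucan group overlapped LPS-G0, whose 4 values were the most tightly grouped of the 6 sets (SD 0.15). In rats without LPS, the C-G0 arrays read -1.12, -0.23, 0.06 and -0.40. The C-G1 arrays read 0.41, 0.49, 0.59 and -0.56, and the C-G2 arrays -0.38, 0.72, 0.30 and -0.45. Here 3 of 4 C-G1 rats lay above every C-G0 rat, while the other read lower than 3 of the 4 C-G0 rats.

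From the highest group mean to the lowest, Cd40 ran LPS-G1 (0.39 ± 0.36, SD, n = 4), LPS-G2 (0.23 ± 0.54), C-G1 (0.23 ± 0.53), C-G2 (0.05 ± 0.56), C-G0 (-0.42 ± 0.50) and LPS-G0 (-0.61 ± 0.15). No neighbouring groups in that order differed by more than the larger of their SDs. The difference between LPS-G1 and LPS-G0 was 1.01 on the log2 scale, or 2.01-fold. It was 0.96 without those LPS-G0 arrays, and 0.44, 1.1 and 1.33 within the 3 slides. Between LPS-G2 and LPS-G0 the difference was 0.85, and 0.80 without those LPS-G0 arrays. It was 0.79, 0.13 and 1.35 within the slides. These contrasts share the LPS-G0 arrays and so are not independent of each other.

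The values of Cd40 in LPS-G1 against LPS-G0 chose the set and are read as a description only. Of the 5 member probes that passed the filter, 1 did not overlap between LPS-G1 and LPS-G0, namely Cd40 A_42_P666951 with LPS-G1 higher. Among all 10313 probes that passed the filter, 21.9% did not overlap between these groups and 7.3% did so with LPS-G1 higher. In LPS-G2 against LPS-G0, 1 of these 5, again Cd40 A_42_P666951 with LPS-G2 higher, did not overlap. Of all probes that passed, 10.5% did not overlap, and 2.81% with LPS-G2 higher. The dim Traf3 probe, which failed the filter, also did not overlap between LPS-G1 and LPS-G0, with LPS-G1 higher. No share was taken over probes that failed the filter.

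The second Cd40 probe, which lies 5′ of the first on the transcript, was dim. It read 0.52 and 0.47 on the 2 LPS-G1 arrays where it was above background, -0.91 and 0.33 on the other LPS-G1 arrays, and -0.63, -1.68, -1.80 and -0.75 in LPS-G0. It was dim on each of the 4 LPS-G0 arrays and on those other LPS-G1 arrays, so neither a fold nor a bound is given for it. Over the 24 arrays both Cd40 probes moved together (Pearson r = 0.79, a description, since the arrays share the pool and fall into groups).

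The C-G1 against C-G0 comparison was the one open to a test in which Cd40 came nearest to a call. Cd40 was 0.66 higher in C-G1 on the log2 scale (SE 0.31, 95% confidence interval 0.02 to 1.29), with an unadjusted p of 0.0439. The limma adjusted p was 0.17 over 10708 probes, and the exact two-sided permutation p was 0.114, where 4 arrays against 4 cannot go below 0.0286. Cd40 therefore did not pass. Its difference was 0.42 without C-G0 replicate 1, ran up to 0.92 with other single arrays left out, and was 0.29 with array weights and 0.35 with normexp and loess. The within-slide differences were 1.08, 0.48 and -0.16, and the slide of the last held 1 array of each group, C-G1 replicate 4 (-0.56) among them. C-G2 exceeded C-G0 by 0.47 (interval -0.16 to 1.11, adjusted p = 0.526), or by 0.24 without C-G0 replicate 1 and 0.25 without C-G2 replicate 2. C-G1 exceeded C-G2 by 0.18 (interval -0.45 to 0.82, adjusted p = 0.743). On the G2 diet, LPS-G2 was 0.18 above C-G2 (interval -0.45 to 0.82). Rats with LPS differed in Cd40 from diet-matched rats without it by -0.19 on the G0 diet (-0.14 without those LPS-G0 arrays) and by 0.16 on the G1 diet, both given without a test.

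Traf3 was read by 2 probes that gave different pictures. The bright probe, A_44_P111337, read -0.68, 0.04, -0.21 and -0.85 in LPS-G0. It read 0.21, 0.04, -0.05 and -0.49 in LPS-G1, and -0.40, -0.80, 0.44 and -0.09 in LPS-G2. These 3 groups overlapped throughout. In C-G0 it read -0.43, 0.75, 0.33 and -0.02. In C-G1 it read -0.08, 0.64, -0.45 and 0.07, and in C-G2 -0.15, -0.03, -0.39 and -0.53. The group means ran from 0.16 ± 0.50 in C-G0 down to -0.43 ± 0.41 in LPS-G0 (SD, n = 4), with C-G1, LPS-G1, LPS-G2 and C-G2 in that order between them. No neighbours in this order differed by more than their SDs.

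On the bright probe, Traf3 was 0.35 higher in LPS-G1 than in LPS-G0 on the log2 scale, or 1.28-fold, and 0.25 higher without those LPS-G0 arrays. Its within-slide differences were 0.53, 0.21 and 0.36. The dim probe, A_44_P335636, read 0.23, 0.31, -0.18 and -0.59 in LPS-G1 and -0.97, -1.47, -0.97 and -1.79 in LPS-G0, without overlap. In Cy3 it was dim on each of these 8 arrays, so no fold is given for it. Across the 24 arrays the 2 Traf3 probes were only loosely related (r = 0.38), against 0.79 for the pair of Cd40 probes.

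**Figure D2:**
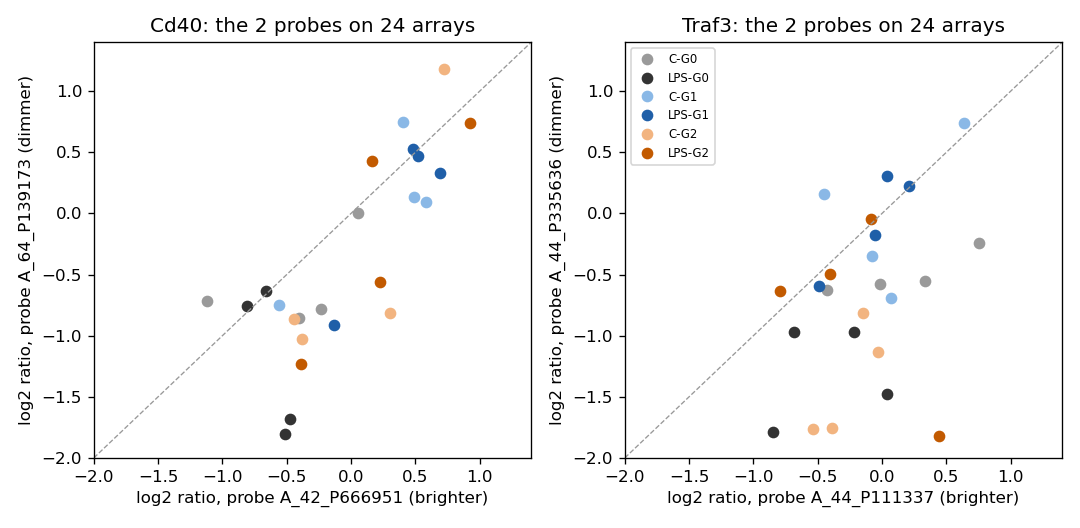
Log2 ratio of the dimmer probe (y axis) against the brighter probe (x axis) of Cd40 (left) and Traf3 (right), 1 point per array, coloured by group, with the line of equal values dashed. The Cd40 pair was more closely related (r = 0.79) than the Traf3 pair (r = 0.38), with single arrays over 1 log2 unit off the line in both panels, such as LPS-G0 replicate 2 of Cd40 (-1.68 against -0.48).

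With the filter, the dim Traf3 probe was not tested in any comparison, because it failed, and its values are given as a description. With no filter, all 9 member probes were tested in C-G1 against C-G0 and in C-G2 against C-G0. In limma 0 of them passed the adjusted p there. Its C-G0 arrays read -0.62, -0.24, -0.55 and -0.58. Its C-G1 arrays read -0.35, 0.74, 0.16 and -0.69, and its C-G2 arrays -0.81, -1.14, -1.76 and -1.76. C-G2 lay wholly below C-G0 and wholly below C-G1, and LPS-G0, a group whose values helped to choose the set, lay wholly below C-G0. Among all probes that passed the filter, 2.62% did not overlap between C-G2 and C-G0, 3.22% between C-G1 and C-G2, and 5.03% between LPS-G0 and C-G0. In the direction of this probe the shares were 1.29%, 2.07% and 1.21%. This probe failed the filter, and no share was taken over probes that failed it, so these shares are of brighter probes. In C-G1 against C-G0, LPS-G1 against C-G1 and LPS-G2 against C-G2, 0 of the 9 member probes, the 5 that passed the filter included, were without overlap. Of all probes that passed, 7.04%, 2.73% and 1.07% were. Since the dim Traf3 probe was above background in Cy3 on only 1 array (C-G1 replicate 2), no fold is given for it.

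Traf3 passed no test on its bright probe. C-G2 was 0.44 below C-G0 as a log2 difference (-0.44, 95% interval -1.01 to 0.14, limma adjusted p = 0.515), or -0.24 without C-G0 replicate 2. C-G1 differed from C-G0 by -0.12 (interval -0.69 to 0.46) and from C-G2 by 0.32 (interval -0.26 to 0.90). LPS-G2 differed from C-G2 by 0.07 (interval -0.51 to 0.64). LPS-G0 differed from C-G0 by -0.59, and by -0.48 without those LPS-G0 arrays, a value given without a test.

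**Figure D3:**
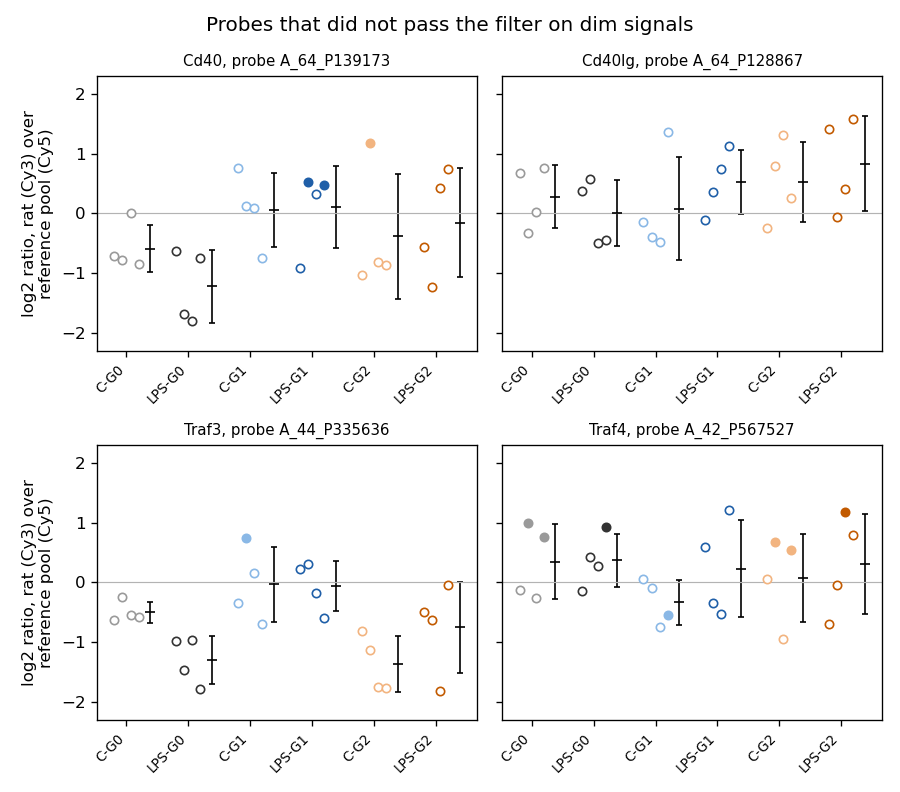
The same plot for the 4 member probes that did not pass the filter: log2 ratio (y axis) by group (x axis), filled points above background in Cy3, open points not, bars mean and SD of 4 arrays. Open points prevail, with 3 of 24 arrays filled for Cd40 A_64_P139173, 1 for Traf3 A_44_P335636, 7 for Traf4 and 0 for Cd40lg.

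Traf2 is the adaptor that brings in the cIAP ligases. Its arrays read 0.14, 0.29, 0.20 and 0.49 in LPS-G1 and -0.03, -0.42, 0.04 and 0.11 in LPS-G2. All 4 LPS-G1 arrays lay above all 4 LPS-G2 arrays, a separation that 6.57% of 10708 probes showed in either direction and 3.29% in this one. In LPS-G0 it read 0.52, 0.13, 0.07 and 0.19, and in C-G0 -0.11, 0.04, 0.17 and 0.42. In C-G1 it read 0.57, 0.52, -0.59 and 0.54, and in C-G2 0.64, -0.21, 0.33 and 0.12. C-G1 thus had 3 arrays close together and 1 far below, and the widest spread of the 6 groups (SD 0.57).

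The Traf2 difference of LPS-G1 over LPS-G2 was 0.36 on the log2 scale (SE 0.22, interval -0.11 to 0.82). Its limma adjusted p was 0.808, and its exact two-sided permutation p was 0.0286, the smallest that 4 arrays against 4 can give and not adjusted over the 32 member tests. Traf2 was also lower in LPS-G2 than in LPS-G0 by value (-0.30, interval -0.64 to 0.04, adjusted p = 0.597, exact permutation p = 0.0571), and by -0.40 without those LPS-G0 arrays. Against C-G2, the difference of LPS-G2 was again -0.30 (interval -0.76 to 0.17). None of these passed.

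Traf6, shared by CD40 and Toll-like receptor signalling, had its highest group mean in LPS-G1 (0.46 ± 0.21, SD, n = 4). There the arrays read 0.41, 0.19, 0.66 and 0.59. In LPS-G0 they read -0.44, 0.34, -0.61 and -0.12, in LPS-G2 0.04, -0.03, 0.20 and 0.23, and in C-G1 -0.17, 0.30, 0.13 and 0.04. LPS-G1 had 3 of 4 arrays above every array of each of these groups, with replicate 2 the exception. The remaining groups were broader, with -0.53, 0.18, -0.78 and 0.38 in C-G0 and -1.03, -0.01, 0.42 and 0.21 in C-G2.

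LPS-G1 exceeded LPS-G0 in Traf6 by 0.67 on the log2 scale (no test), or by 0.52 without those LPS-G0 arrays. LPS-G1 exceeded C-G1 by 0.39, given as a description because the probe had passed the filter only through these groups. LPS-G1 exceeded LPS-G2 by 0.35 (interval -0.21 to 0.92, limma adjusted p = 0.808, exact permutation p = 0.0857). Between LPS-G0 and C-G0 the Traf6 difference was -0.02 (interval -0.54 to 0.49), and 0.13 without those LPS-G0 arrays. LPS-G2 against LPS-G0 gave 0.32 (interval -0.20 to 0.83), or 0.16 without those arrays.

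Traf1, an NF-kB target that pairs with TRAF2, had a mean log2 ratio below 0 in every group. The means ran from -0.92 ± 0.76 in C-G0 to -0.39 ± 0.46 in LPS-G1 (SD, n = 4). Single arrays ranged from -2.04 (C-G0 replicate 3) to 0.19 (C-G1 replicate 1), and the lowest array in C-G1 was -1.67 (replicate 3). On both of those low arrays the Cy3 signal was not above background. Of the Traf1 differences, the widest was C-G1 over C-G0 at 0.48 (SE 0.38, interval -0.31 to 1.27, limma adjusted p = 0.391). That value was 0.10 without C-G0 replicate 3, 0.27 without C-G1 replicate 1 and 0.89 without C-G1 replicate 3. For Traf1, LPS-G0 against C-G0 gave 0.32 (interval -0.40 to 1.03), or 0.60 without those LPS-G0 arrays.

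For Cd40lg and Traf4 no fold is given. Cd40lg, dim throughout, gave log2 ratios that ran from -0.50 in LPS-G0 to 1.57 in LPS-G2. Traf4 was above background on 2 arrays of C-G0, 2 of C-G2, 1 each of LPS-G0, C-G1 and LPS-G2, and on 0 of LPS-G1. Its ratios ran from -0.95 to 1.21 and overlapped between all groups.

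**Figure D4:**
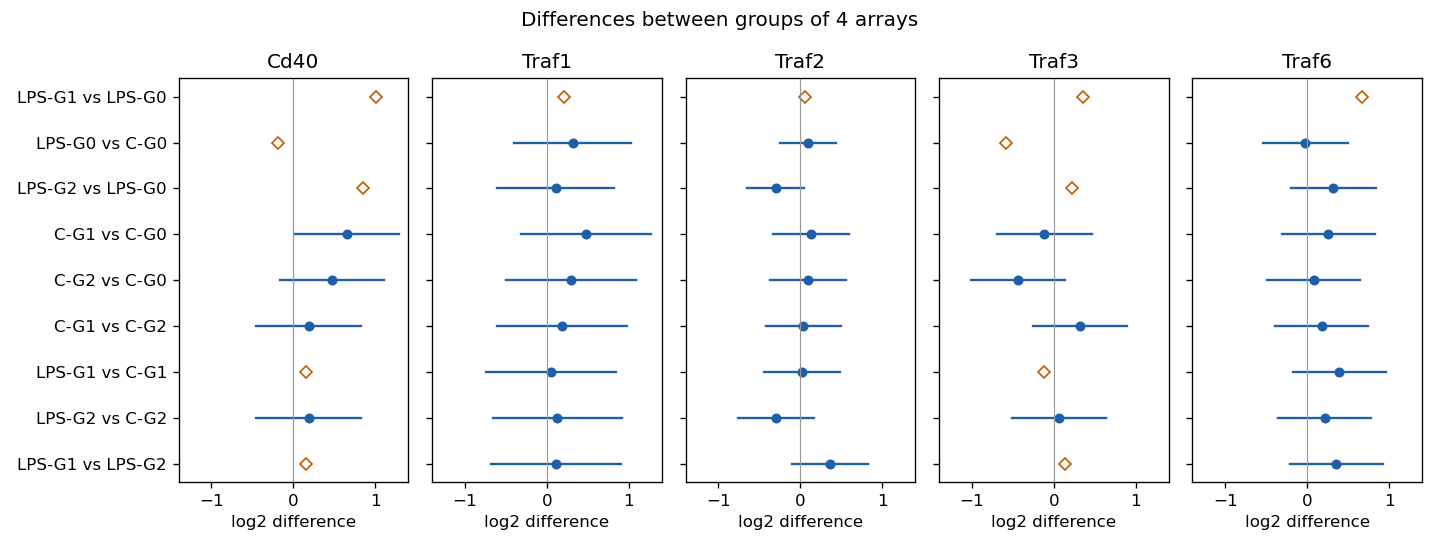
Log2 difference between group means (x axis) for the 9 comparisons (rows) and the 5 member genes with a probe that passed the filter (panels). Blue points with lines are tested differences with their 95% confidence interval, and open diamonds are described differences without a test. Of the 32 intervals, 26 lie wholly between -1 and 1. The 3 tests whose probe passed the filter only through the groups compared are drawn and counted too, as a description only.

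In all, 32 differences of 5 genes were tested over 8 comparisons, and 0 passed an adjusted p of 0.05 in limma. Without the 3 tests whose probe had passed the filter only through the groups compared, 0 of 29 passed. At an unadjusted p of 0.05 there was 1 (Cd40, C-G1 against C-G0, where 27.9% of all probes passed), and by the exact permutation test 1 (Traf2, LPS-G1 against LPS-G2). The share of all probes at an unadjusted p of 0.05 was 15.2% in LPS-G0 against C-G0, 8.23% in LPS-G2 against LPS-G0, 13.3% in C-G2 against C-G0 and 15.4% in C-G1 against C-G2. It was 2.81% in LPS-G1 against C-G1, 1.09% in LPS-G2 against C-G2 and 4.21% in LPS-G1 against LPS-G2, with 0 members in each of these 7. With LPS-G0 against C-G0, 0 of 3 member probes were called, against 0.0097% of all probes, and with LPS-G2 against LPS-G0, 0 of 3 against 0%. Of the 5 member probes tested in each, 0 were called in C-G1 against C-G0 and in C-G2 against C-G0 (0.028% of all probes in each) and 0 in C-G1 against C-G2 and in LPS-G2 against C-G2 (0% in each). Of the 3 tested in each, 0 were called in LPS-G1 against C-G1 (0.00934%) and in LPS-G1 against LPS-G2 (0%). These counts, and that of the intervals next, include the 3 tests that rest on the groups compared, which count as a description only. In 26 of the 32 tests the 95% interval lay within 1 log2 unit of 0 on both sides, so a 2-fold difference was outside it, and the outermost bounds were -1.01 and 1.29. In the untested LPS-G1 against LPS-G0 contrast, 8.93% of all probes passed the adjusted p.

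The diet difference in rats with LPS minus that in rats without was also taken. For the G1 diet it was 0.35 in Cd40, -0.26 in Traf1, -0.08 in Traf2, 0.47 in Traf3 and 0.41 in Traf6, given without a test because it holds LPS-G1 minus LPS-G0. Without those LPS-G0 arrays these values were 0.30, -0.54, -0.18, 0.36 and 0.26. For the G2 diet it was -0.19 in Traf1, -0.39 in Traf2 and 0.24 in Traf6 (limma adjusted p = 0.943, 0.843 and 0.896), or -0.47, -0.49 and 0.08 without those LPS-G0 arrays. In Cd40 and Traf3 the G2 values were 0.37 and 0.65, or 0.33 and 0.55 without those LPS-G0 arrays, given without a test.

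Around the members, a list of 53 receptors, kinases, ubiquitin enzymes and NF-kB genes that work with TRAFs was followed, of which 48 had a probe and 29 were tested. Tank, which binds TRAFs and holds back their signalling, was the one partner that passed in any of 9 comparisons, 1 of 29 in LPS-G1 against LPS-G0, where 8.93% of all probes passed. Tank was lower in LPS-G1 than in LPS-G0, with means of -0.19 and 0.50 (difference -0.69, SE 0.19, limma adjusted p = 0.0357), and stood at 0.005 in C-G0, -0.11 in C-G1, 0.23 in C-G2 and 0.10 in LPS-G2. Without those LPS-G0 arrays the Tank difference was -0.70 (SE 0.23) and no longer passed (limma adjusted p = 0.129). The other 8 comparisons had 0 of 29 partners past the adjusted p in limma, with 0 to 6 of 29 at an unadjusted p of 0.05. The 6 were in C-G1 against C-G0, where 27.9% of all probes were at that level. The counts of 0 were in LPS-G1 against C-G1 and LPS-G2 against C-G2, where 2.81% and 1.09% were. The median difference of the 29 partners in LPS-G1 against LPS-G0 was 0.16, beside 0.06 over all probes, and 0.09 without those LPS-G0 arrays.

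Among the partners closest to TRAF3, Map3k14, which encodes NIK, was above background on 5 of 24 arrays and was not tested. Its group means were -1.28 in LPS-G0 (-1.69 without those LPS-G0 arrays), -0.33 in LPS-G1, -0.49 in LPS-G2 and -0.90 in C-G0. Birc3, the gene of cIAP2, was 0.45 higher in LPS-G1 than in LPS-G0 (SE 0.20, limma adjusted p = 0.161) and 0.45 lower in LPS-G0 than in C-G0 as a log2 difference (-0.45, adjusted p = 0.301). Without those LPS-G0 arrays these values were 0.54 and -0.55. Nfkb2, whose product is processed when NIK is free, differed by -0.19 between LPS-G1 and LPS-G0 (limma adjusted p = 0.457), or by -0.05 without those LPS-G0 arrays. Its partner Relb had no probe under that name.

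Genes whose log2 ratio ran most like each member over the 24 arrays were sought among 9211 probes above background on at least 20 arrays. For Cd40 they were Irak3 (r = 0.82), Esrra (0.80), Ctsa (0.79), Arpc5l (0.78) and Npc1 (0.78), and 2 probes reached an r of 0.8. For Traf3 they were Srsf11 (0.94), Shbg (0.92), Oxsm (0.92), Fryl (0.91) and Peo1 (0.91), and 125 probes reached 0.8. Traf1 (Pex16, Exosc4, Rfxank, Prpf3 and Ddx39a, 0.69 to 0.74), Traf2 (Sac3d1, Trmt2a, Wdr46, Mgat1 and Cdk5rap2, 0.63 to 0.68) and Traf6 (Atxn10, Cebpg, Snrpg, Mrps16 and Mtg1, 0.70 to 0.73) had 0 probes at that level. The members were loosely tied to each other, with r from -0.14 to 0.46 over the 10 pairs of the 5 bright probes. These correlations are descriptions over arrays that share 1 reference pool.

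**Figure D5:**
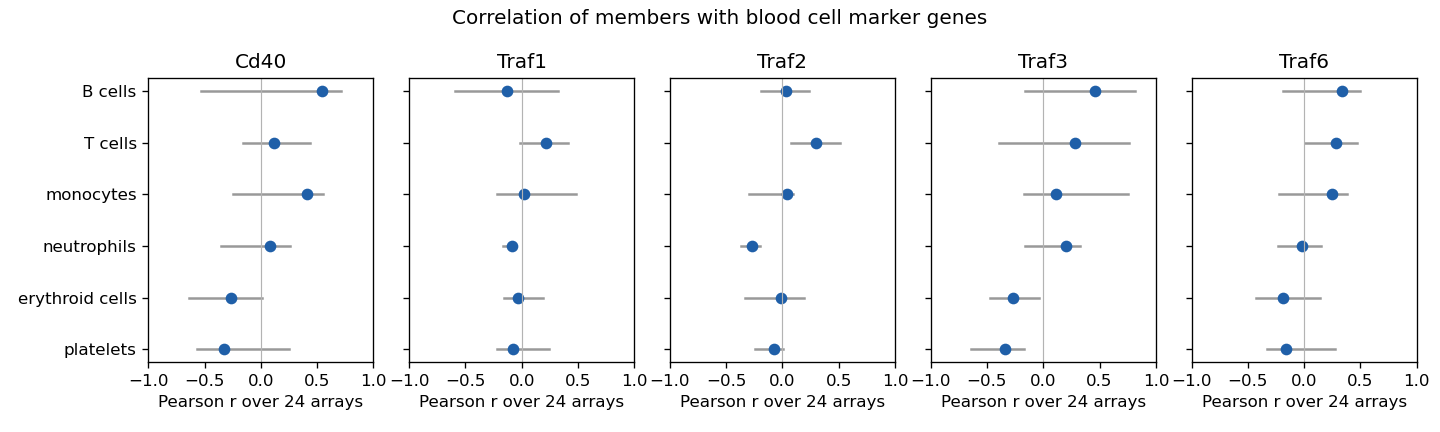
Pearson r over 24 arrays (x axis) between each member's bright probe (panels) and the genes of 6 blood cell marker lists (rows); the point is the list's median and the line its lowest to highest gene. The B cell point of Cd40 sits at 0.54 and its platelet point at -0.32.

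Cell type markers were set beside the members, because whole blood mixes many cells. By median r, Cd40 ran with B cell genes (0.54 over 9 genes, from -0.54 to 0.71) and monocyte genes (0.41 over 7, from -0.25 to 0.55). It ran against erythroid genes (-0.27 over 10, from -0.64 to 0.01) and platelet genes (-0.32 over 7, from -0.56 to 0.25). The median over all probes was 0.04. Traf3 had medians of 0.46 with B cell genes (from -0.16 to 0.81) and 0.28 with T cell genes (from -0.39 to 0.76). With platelet genes its median was -0.34. Traf2 had its highest median with T cell genes (0.30 over 12), as did Traf1 (0.22). Traf6 lay at 0.34 with B cell genes, 0.29 with T cell genes and 0.25 with monocyte genes. Traf1, Traf2 and Traf6 stood at -0.03, -0.01 and -0.19 with erythroid genes.

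Some of these lists moved between the groups in which Cd40 was read. In LPS-G1 against LPS-G0, 7 of 9 B cell genes tested were higher by value (median 0.46) and 7 of 7 monocyte genes (median 0.37), yet 0 of either list passed limma's adjusted p. Without those LPS-G0 arrays the medians were 0.52 and 0.52. Over all probes, with all arrays kept, the median was 0.06. The B cell list holds Fcer2, which, like Cd40 and Traf3, stood in the study's list for this comparison. At an unadjusted p of 0.05 there were 0 B cell genes and 1 monocyte gene. The share of all probes at that level was not taken for this comparison, where 8.93% passed the adjusted p. The mean log2 ratio over the 14 B cell genes with a probe ran from -0.58 to -0.12 in LPS-G0 and from -0.24 to 0.14 in LPS-G1, with 0 of the 14 dim on all arrays. For the 10 monocyte genes it ran from -0.43 to -0.07 and from -0.23 to 0.20, with Cd163 dim on all 24 arrays. By value, 11 of 13 T cell genes (median 0.24) and 4 of 5 neutrophil genes (median 0.30) were also higher in LPS-G1. Platelet genes were lower in 4 of 7 (median -0.08). None of these passed limma's adjusted p. Without those LPS-G0 arrays the T cell, neutrophil and platelet medians were 0.05, 0.20 and -0.01. Of 10 erythroid genes, 8 were lower in LPS-G1 by value and 3 passed, where 8.93% of all probes did, namely Hemgn (-1.03, adjusted p = 0.0289), Epb42 (-0.93, adjusted p = 0.0408) and Klf1 (-0.81, adjusted p = 0.0289). Without those LPS-G0 arrays none of these 3 passed in limma, at -1.29 (adjusted p = 0.127), -0.84 (adjusted p = 0.201) and -0.74 (adjusted p = 0.134). The erythroid mean ran from 0.06 to 0.28 in LPS-G0 and from -0.70 to 0.13 in LPS-G1.

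In C-G1 against C-G0, where Cd40 came nearest to a call, 10 of 10 erythroid genes were lower by value (median -0.82), 0 of them past the adjusted p in limma and 5 at an unadjusted p of 0.05, where 27.9% of all probes were. Their mean ran from -0.18 to 0.41 in C-G0 and from -1.45 to -0.10 in C-G1. Of 7 monocyte genes, 5 were higher by value in C-G1 (median 0.34), with 0 past the adjusted p in limma and 2 at an unadjusted p of 0.05. B cell genes were higher by value in 6 of 10 (median 0.15) and T cell genes in 11 of 14 (median 0.19). Neutrophil genes were lower in 4 of 5 (median -0.24) and platelet genes in 6 of 7 (median -0.11). None of these passed limma's adjusted p. The part of blood cell make-up in the Cd40 values was not tested. In LPS-G2 against LPS-G0, 5 of 5 neutrophil genes tested were higher (median 0.65) by value, as were 7 of 9 B cell genes (median 0.32) and 5 of 7 monocyte genes (median 0.37). In limma 0 of these passed the adjusted p, and 4 neutrophil, 0 B cell and 2 monocyte genes were at an unadjusted p of 0.05, where 8.23% of all probes were. Without those LPS-G0 arrays the medians were 0.59, 0.38 and 0.52. T cell genes were lower in LPS-G2 by value in 9 of 13 (median -0.05) and erythroid genes in 7 of 10 (median -0.13). Without those arrays these medians were -0.14 and -0.20. Platelet genes were higher in 4 of 7 (median 0.02, or 0.11 without those arrays).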

How the data were processed

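Whole-blood RNA of 24 rats was hybridised on two-colour Agilent arrays against 1 pooled reference. The authors extracted the scans with Agilent Feature Extraction (version 10.10.1.1 per the file headers, 10.7.3.1 per the labels), with background subtraction and Lowess normalisation, and deposited a log10 ratio of Cy5 over Cy3 per spot beside the channels' intensity values. The deposited value table held the same log10 ratios at 1511424 of 1511424 spots and was not used further. The log ratio was turned to log2 of Cy3 over Cy5, outlier spots (679 to 1133 per array) were left out, and spots of a probe were averaged. A probe is above background where at least 0.5 of its spots are flagged so. A probe was kept if some group had it above background in Cy3 throughout, which left 10313 for the fit of C-G0 with the LPS groups (16 arrays) and 10708 for that of all 24. Differences were tested with limma 3.58.1 in R 4.3.3 (moderated two-sided test, Benjamini-Hochberg over all kept probes) and, per probe, an exact permutation test of 70 arrangements. LPS-G0 against C-G0 and both beta-glucan groups against LPS-G0 came from the fit of 16 arrays, the others from that of 24. On simulated data for LPS-G0 against C-G0 over 10313 probes, 67.5% of 200 probes changed 2-fold and 99% of 200 changed 4-fold were recovered, and for C-G1 against C-G0 over 10708 probes 67.5% and 96.5%. The simulated noise was independent between probes and arrays, without slide effects, and the changed probes were drawn from all kept probes. These shares are therefore not the power for the members. All 8 members and every probe were named. The partner genes named were those with a call in any comparison and Map3k14, Birc3, Nfkb2, Relb and Tank, and the 5 gene symbols most like each member were listed. The members and lists were chosen with earlier results of these data known. A member's reference probe is the one above background on most arrays. Separate rats made up each group, so the p-values measure the spread between rats. Alternatives covered the filter, background correction, channel, array weights, slide, replicate number, averaging of probes, samples in the fit, single replicates and the methods' analysis of variance.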

Additional observations from a re-analysis of the deposited data

Results flagged for a closer look

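Of 54 sets of 4 arrays (9 probes in 6 groups), 5 held an array that lay apart from its group by Dixon's test at the 95% level, where chance alone flags about 1 in 20 sets. For Cd40 probe A_42_P666951 it was C-G1 replicate 4 at -0.56, below 3 arrays between 0.41 and 0.59. For the dim Cd40 probe A_64_P139173 these were C-G0 replicate 3 at 0 (a log ratio deposited as exactly 0, with neither channel flagged well above background), LPS-G1 replicate 1 at -0.91 and C-G2 replicate 2 at 1.18, the last of which was above background in Cy3. For Traf2 it was C-G1 replicate 3 at -0.59, below 3 arrays between 0.52 and 0.57.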

How the results depend on the processing

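The count of member probes past the adjusted p was 0 in each of the 8 tested comparisons and stayed at 0 under every alternative run. These were no filter, a stricter filter, normexp with loess, processed signals, Cy3 alone, slide as a block, array weights, an intensity trend, averaged probes, other samples in the fit, each replicate left out in turn (0 to 0 in each comparison) and, for LPS-G0 against C-G0 and LPS-G2 against LPS-G0, the LPS-G0 arrays of conflicting labels left out and Tukey's test after analysis of variance, as in the methods, with and without Benjamini-Hochberg. Under the stricter filter no member was left to test in LPS-G0 against C-G0, LPS-G2 against LPS-G0, LPS-G1 against C-G1 and LPS-G1 against LPS-G2, so the 0 there says nothing. With the replicate number as a block the count was 0 in each comparison as well. The deviations of same-numbered rats of different groups had a mean r of 0.11 (from -0.31 to 0.54), against -0.04 for other pairs. Not every pair passed 0.1, so the number was not taken as a pairing. Of 32 member differences, 21 were smaller than their standard error, and 19 of these changed sign under at least 1 alternative, so they carry no direction. The other 11 kept their sign throughout, with single replicates left out moving Traf3 in C-G1 against C-G2 from 0.12 to 0.49, Traf6 in LPS-G2 against LPS-G0 from 0.18 to 0.50 and Traf2 in LPS-G2 against C-G2 from -0.44 to -0.16. The Cd40 difference of LPS-G1 over LPS-G0 (1.01) was 0.67 with normexp and loess (the cause was not tested) and ran from 0.91 to 1.18 with single replicates left out. The Traf3 difference (0.35) was 0.80 when its dim probe was averaged in, and ran from 0.21 to 0.51 with single replicates left out, the lowest without LPS-G0 replicate 4. With the replicate number as a block these differences were 1.01 and 0.35. Leaving out the LPS-G0 arrays of conflicting labels for the partner and marker genes, the lists and the diet differences with minus without LPS was chosen after seeing the data, and ended the calls of Tank, Hemgn, Epb42 and Klf1 in LPS-G1 against LPS-G0, with fewer arrays in the fit.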
